A study of Arabidopsis thaliana with 3 samples.

Results

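The genes described here are 10 regulators of light signalling in Arabidopsis thaliana: the phytochrome-interacting factors PIF1, PIF3, PIF4, PIF5 and PIF7, the light-promoting factors HY5, HYH and HFR1, and the repressors COP1 and SPA1. They were listed by locus name and not by a rule on measured levels, but with earlier results of these data known. Their N6-methyladenosine (m6A) sites are the rows of the deposited table that carry those names. The 10 genes held 61 of 120269 listed sites, and 15198 genes had at least 1 listed site named with that gene alone. The samples were 3 replicates of whole seedlings in 1 group, kept on plates for 7 days under a cycle with 16 h of light, at a temperature of 22 °C, and the methods name Col-0 as the accession. No seedling was treated or mutated and no second group exists, so all values describe whole light-grown seedlings. Polyadenylated RNA was analysed by CAM-seq, in which unmodified adenosine is deaminated and read as G, whereas m6A is still read as A. The m6A level of a site is the percentage of covering reads in which A remained. Each site has 1 depth and 1 unconverted count for the 3 samples together, so no value has a replicate error and differences between samples could not be tested. Wilson 95% intervals are given instead, and they cover counting error only. A site was listed when at least 20 reads covered it and a binomial p-value against a background of 1% unconverted reads was below 0.001.

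Light signalling in seedlings turns on the removal of proteins. In darkness the PIFs, basic helix-loop-helix transcription factors, drive hypocotyl elongation, while an E3 ubiquitin ligase built of COP1 and SPA proteins marks HY5, HYH and HFR1 for degradation. In light, activated phytochromes bind PIFs and lead to the degradation of most of them, and COP1 activity is suppressed, so that HY5 and its relatives accumulate and switch on greening. m6A in plant mRNA is deposited mostly near the stop codon and in the 3′ untranslated region (UTR), where proteins with a YTH domain bind it.

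The site with the highest level in each gene is shown first, since these sites set where the 10 genes stand relative to each other. Each line gives 21 bases of the deposited context, 5′ to 3′ on the RNA strand with T for U, with TAIR10 coordinates. Capitals mark the 5-letter motif, whose middle A is the site.

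COP1, chr2:13983435-13983455, plus strand: ttgccttgGAACActcctcaa

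SPA1, chr2:19022324-19022344, minus strand: tttgagatAAACTtctcagat

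PIF3, chr1:3079407-3079427, plus strand: tagcattcAAACAaatctatt

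PIF7, chr5:24638794-24638814, minus strand: gattgtaaAAACTgttttgag

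HY5, chr5:3593418-3593438, minus strand: cttaattgAAACAtaatgttg

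PIF4, chr2:17888890-17888910, plus strand: catacttaAAACGttcaagga

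HYH, chr3:6024665-6024685, plus strand: tgttcgaaTAACAttcacttt

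PIF5, chr3:21828051-21828071, minus strand: ttagtctcATACTtataactt

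HFR1, chr1:465818-465838, minus strand: tgtgtcatATACTtttttttc

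PIF1, chr2:8704196-8704216, minus strand: tgacagagAGACCtaacatgt

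The highest levels ran from 94.8% in COP1 down to 18.9% in PIF1. COP1 was followed by SPA1 at 86.7%, PIF3 at 72.7%, PIF7 at 67.6%, HY5 at 57.9% and PIF4 at 54.5%. HYH at 28.9%, PIF5 at 28.1%, HFR1 at 23.1% and PIF1 at 18.9% formed the lower end. Of the 10 genes, 6 thus had a highest level above 50%, the value by which the study divided human genes and which is used here for description. Over all genes in the table this share was 67.0%, so the 10 genes stood close to the background. Only 4 of the 6, COP1, SPA1, PIF3 and PIF7, had a lower interval bound above 50%. Among sites with at least 50 reads, only COP1, SPA1 and HY5 exceeded 50%, and only 3 of the 17 PIF sites had that depth. The share over all genes was not computed with the interval bound or with this depth limit.

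No 2 neighbours in this order were separated by their intervals. COP1 ran from 89.1 to 97.6% and SPA1 from 78.6 to 92.1%, and the interval of PIF4, from 34.7 to 73.1% on 22 reads, overlapped that of HYH, from 23.0 to 35.8% on 190 reads. HY5 was separated from its relative HYH, with 49.2 to 66.2% over 126 reads. In COP1 the highest level lay at the 89.9th percentile of the highest levels of all genes, and in SPA1 at the 72.7th. It lay at the 12.2th percentile in PIF1. A gene with more listed sites has more chances of a high value, and the number of sites differed widely here.

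**Figure D1:**
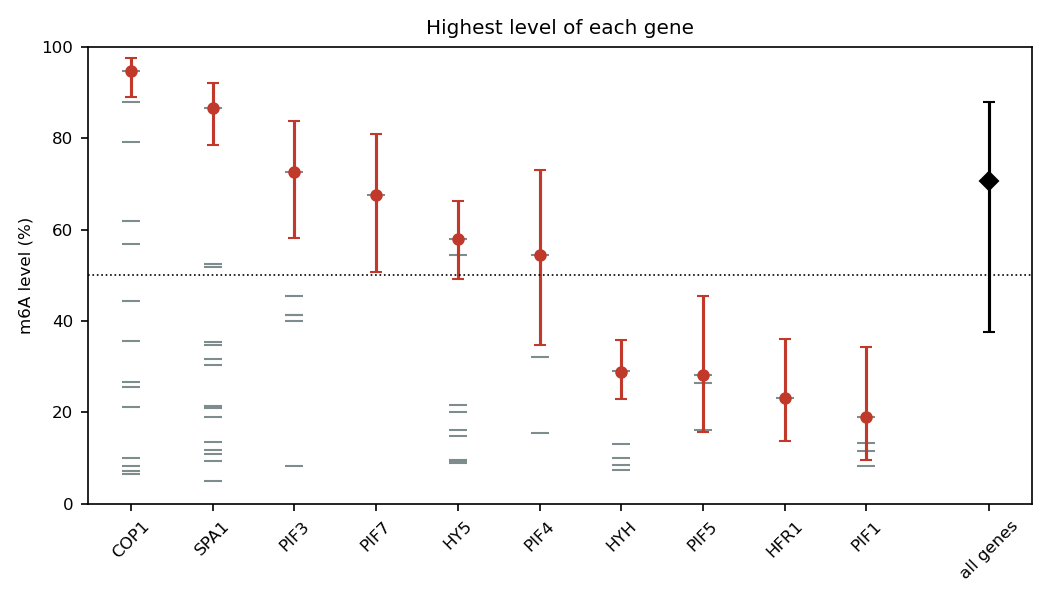
Highest m6A level in percent (red points, Wilson 95% intervals) and all other listed sites (grey bars) of the 10 genes in order of their highest level, beside the median and quartiles of the highest level over all genes (black). COP1 at 94.8%, SPA1 at 86.7% and PIF3 at 72.7% lie above the median of all genes, 70.6%, and HYH, PIF5, HFR1 and PIF1 lie below the lower quartile, 37.5%.

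SPA1 had 15 listed sites, COP1 14, HY5 9, PIF3 6, HYH 5, PIF1 4, PIF4 and PIF5 3 each, and PIF7 and HFR1 1 each. The median over all genes was 7 sites. COP1 and SPA1 lay at the 88.5th and 91.5th percentiles, whereas PIF7 and HFR1 lay at the 5.49th. Depth differed between the genes too. The median depth at listed sites was 26 reads in PIF4, 34 in PIF7, 37 in PIF5, 44.5 in PIF3 and 49 in PIF1, against 190 reads in HYH and 174 in HY5. COP1 and SPA1 had 110 and 112 reads, and the median over all genes was 83. Depth at listed sites is not a measure of expression by itself, and in whole seedlings fewer expressing cells and less RNA per cell cannot be told apart.

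Depth also set which levels could be listed at all. At 22 reads, the depth of the highest PIF4 site, a level under 18.2% did not pass the threshold of the table, whereas at 120 reads the limit was 5.83%. The 17 sites of the 5 PIF genes had depths of 22 to 122 reads, only 3 of them with at least 50. Levels of about 10% as in HY5 and HYH could therefore not be listed at most PIF sites, and the median levels of 28.1% over PIF sites and 13.9% over HY5 and HYH sites are not a comparison of like with like.

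**Figure D2:**
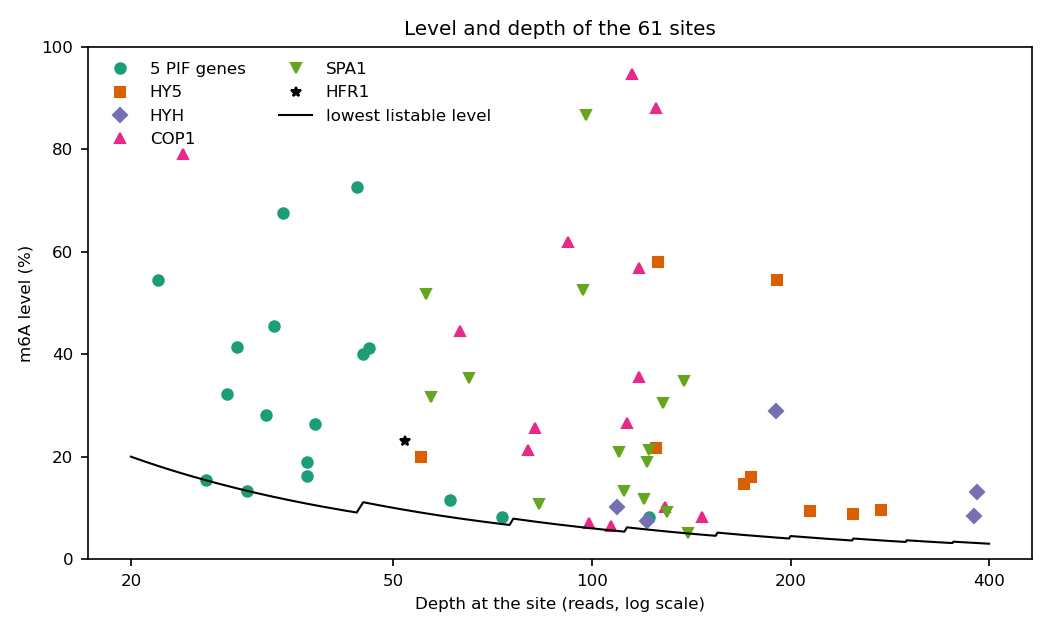
m6A level in percent against depth in reads (log scale) for the 61 sites, with the lowest level that could be listed at each depth (line). Most sites of the 5 PIF genes lie at the shallow end, where the line is high, and the HY5 and HYH sites lie at the deep end, where levels near 9% were listed.

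All 61 sites lay in the last exon of their gene, against 96.9% of the sites in the table that could be placed on a coding transcript. The 3′ UTR held 58 of them (95.1%, Wilson interval 86.5 to 98.3%), against 92.4% of all placed sites. The other 3 lay in the last codons of the coding sequence, 1 in PIF3 and 2 in HYH. The median level over the 61 sites was 21.6%, against 21.8% over all sites, and 13 of the 61 (21.3%) exceeded 50%, against 24.2% of all sites.

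The position relative to the stop codon depended on the transcript for HY5 and PIF1. With the coding transcript that has the longest coding sequence, 33 of 61 sites (54.1%) lay in the window from −20 to +180 nt around the stop codon, against 72.0% of all placed sites. In HY5 that transcript, NM_001343175.1, ends its coding sequence early, and the 9 sites lay 226 to 365 nt after its stop codon. With the other annotated transcript, NM_121164.5, the same sites lay 34 to 173 nt after the stop codon and all 9 were in the window. In PIF1 several transcripts share the longest coding sequence, of 1437 nt, and the longest of these transcripts, NM_001335663.1, was used. The 4 PIF1 sites lay 231 to 329 nt after its stop codon and 62 to 160 nt after that of NM_001202630.2, whose coding sequence is as long. With the transcript that puts most sites of a gene in the window, 46 of 61 sites (75.4%) were inside, against 73.0% over all genes treated in the same way. This second rule was chosen after the sites were seen. Distances of HY5 and PIF1 sites below are those of NM_121164.5 and NM_001202630.2, and the other genes have the same distances under both rules.

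**Figure D3:**
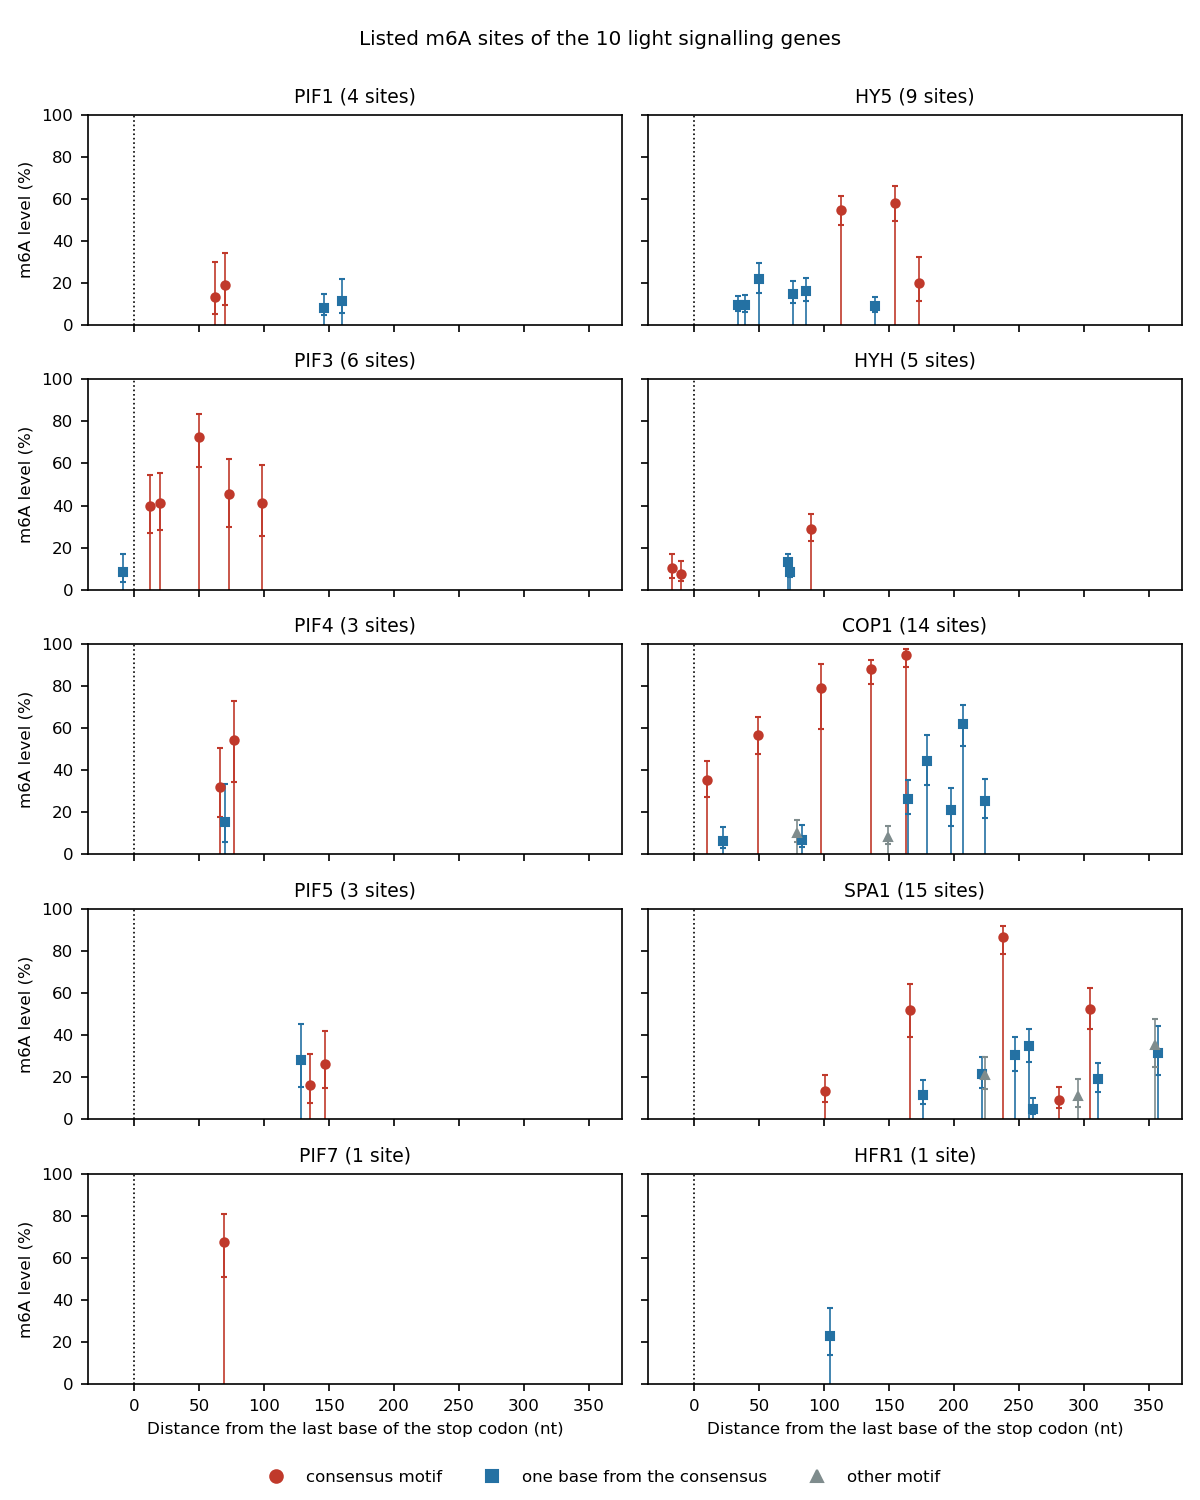
m6A level in percent of each listed site against the distance in nt from the last base of the stop codon (dotted line), with Wilson 95% intervals, in the 10 genes. Red points are sites in the consensus motif RAC (R is A or G), blue points differ from it by 1 base (UAC and CAC as well as AAU and GAU), and grey points lie in other motifs. COP1 and SPA1 carry sites over more than 200 nt, and the highest COP1 site reaches 94.8% at +163 nt.

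COP1 is the RING-finger subunit that gives the ligase its activity, and it held the 2 highest levels of the set beside 4 sites at or below 10.1%. COP1 (AT2G32950) lies at chr2:13977881-13983609 on the plus strand, and all 14 sites were in exon 13 of 13. Its 5 sites in the consensus motif RAC, in which R is A or G, had levels that increased in the order of their distance from the stop codon. The GAC site at +10 nt had a level of 35.6% (27.5 to 44.6%, 118 reads). The AAC site at +49 nt had 56.8% (47.8 to 65.4%, 118 reads), and that at +98 nt had 79.2% (59.5 to 90.8%). This last site was covered by 24 reads only, whereas the listed sites next to it had 99 and 125 reads. The AAC site at +136 nt followed with 88.0% (81.1 to 92.6%, 125 reads), and the AAC site at +163 nt had 94.8% (89.1 to 97.6%, 115 reads). The last of these was unconverted in 109 of 115 reads and stood at the 96.4th percentile of all AAC sites. The sites at +10 and +49 nt were separated from each other and from those at +136 and +163 nt by their intervals. The intervals of the neighbours from +49 nt onwards overlapped. An order along the UTR was not a planned comparison. The 5-letter motif also differed among these 5 sites, so position and motif cannot be told apart.

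The other 9 COP1 sites lay outside RAC. The highest was a UAC site at +207 nt with 62.0% (51.7 to 71.2%, 92 reads), at the 86.9th percentile of UAC sites and the only site above 50% outside RAC among the 10 genes. The AAU site at +179 nt had 44.4% (32.8 to 56.7%, 63 reads), at the 84.1th percentile of AAU sites. The deepest COP1 site, in a UAU motif at +149 nt, had 8.16% (4.73 to 13.7%, 147 reads). Upstream of +98 nt the levels outside RAC were low, between 6.54% and 10.1% at 3 sites.

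SPA1 encodes the kinase-like partner that enhances the ligase, and its gene (AT2G46340) lies at chr2:19022154-19027528 on the minus strand. Its 15 sites were spread over 257 nt of exon 8 of 8, from +101 to +357 nt, and only 3 of them lay inside the stop codon window. The AAC site at +238 nt had 86.7% (78.6 to 92.1%, 98 reads). AAC sites at +305 and +166 nt had 52.6% (42.7 to 62.2%, 97 reads) and 51.8% (39.0 to 64.3%, 56 reads). The remaining AAC sites were low, with 13.4% at +101 nt (8.29 to 20.9%, 112 reads) and 9.23% at +281 nt (5.36 to 15.4%, 130 reads). Unlike in COP1, the SPA1 AAC levels showed no order along the UTR. The deepest SPA1 site was a GAU site at +261 nt with 5% (2.44 to 9.96%, 140 reads), the lowest level of the set and the lowest that could be listed at that depth. SPA1 also held sites in uncommon motifs, with a GAG site at 35.4% (24.9 to 47.5%, 65 reads) that stood at the 91.6th percentile of all GAG sites.

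The motif AAACU, which all 3 of the SPA1 sites at +101, +166 and +238 nt share, shows how far level varied at a fixed 5-letter sequence. It occurred at 6 sites of the set, and the 4 not yet printed as the highest of their gene are given here to show that the same capitals stand in unlike surroundings.

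SPA1 at +166 nt, chr2:19022396-19022416, minus strand: aagaagcaAAACTgtctgtga

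PIF3 at +12 nt, chr1:3079369-3079389, plus strand: ataaatacAAACTtatgaact

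SPA1 at +101 nt, chr2:19022461-19022481, minus strand: tgtcctggAAACTatgatccc

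HYH at −17 nt, chr3:6024558-6024578, plus strand: aaggcctaAAACTgatgacaa

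The 6 AAACU sites had levels of 86.7% and 51.8% in SPA1, 67.6% in PIF7, 40.0% in PIF3, 13.4% in SPA1 and 10.1% in HYH. Their median of 45.9% was near that of the 5869 AAACU sites of the table, 51.6%, whose quartiles were 22.6% and 78.6%. The lowest, in HYH, lay in the coding sequence and at the 9.52th percentile of AAACU sites. Within SPA1 alone the range was 73.3 points, and the intervals of the 3 sites did not overlap. Among the 152 genes with at least 3 AAACU sites the median range was 39.0 points, and SPA1 lay at the 88.5th percentile of these ranges. AAACA occurred at 5 sites, with 26.3% in PIF5, 45.5% and 72.7% in PIF3, 56.8% in COP1 and 57.9% in HY5. GAACA had 32.1% in PIF4 and 79.2% and 94.8% in COP1.

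HY5, a basic leucine zipper factor that binds promoters of light-induced genes, had the deepest coverage among the genes with a level above 50%. HY5 (AT5G11260) lies at chr5:3593335-3595073 on the minus strand, and its 9 sites were covered by 55 to 274 reads. The AAC site at +155 nt had 57.9% (49.2 to 66.2%, 126 reads) and the GAC site at +113 nt had 54.5% (47.4 to 61.4%, 191 reads). The 2 did not differ beyond counting error. The third RAC site, an AAC site at +173 nt, had 20% (11.6 to 32.4%, 55 reads). The 6 GAU and AAU sites were all lower than the 2 high RAC sites, from 8.84% at +139 nt (5.91 to 13%, 249 reads) to 21.6% at +50 nt (15.3 to 29.6%, 125 reads). The deepest HY5 site, a GAU site at +34 nt, had 9.49% (6.56 to 13.5%, 274 reads).

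HYH, the closest relative of HY5, is redundant with it in part. HYH (AT3G17609, chr3:6023844-6024710, plus strand) was read about as deeply as HY5, with 109 to 383 reads, and none of its 5 sites exceeded 28.9%. Its single RAC adenosine in the 3′ UTR, an AAC site at +90 nt, had 28.9% (23.0 to 35.8%, 190 reads). The deepest site of the whole set, a UAC site at +72 nt, had 13.1% (10 to 16.8%, 383 reads), and the CAC site at +74 nt had 8.42% (6.03 to 11.6%, 380 reads). Both RAC sites of the coding sequence were low, with 10.1% at −17 nt (5.73 to 17.2%, 109 reads) and 7.44% at −10 nt (3.96 to 13.5%, 121 reads). HYH has a 3′ UTR of 125 nt, the shortest of the 10 genes.

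Among the PIFs, PIF3 carried the most sites, and PIF1 the lowest levels. PIF3 (AT1G09530, chr1:3075768-3079654, plus strand) had 5 AAC sites between +12 and +98 nt. The site at +50 nt had 72.7% (58.2 to 83.7%, 44 reads). The AAC sites on either side of it were close together, with 40.0% (27.0 to 54.5%, 45 reads) at +12 nt, 41.3% (28.3 to 55.7%, 46 reads) at +20 nt, 45.5% (29.8 to 62.0%, 33 reads) at +73 nt and 41.4% (25.5 to 59.3%, 29 reads) at +98 nt. These 4 were not separated from one another by their intervals. The interval at +50 nt overlapped those at +73 and +98 nt, and not those at +12 and +20 nt. The deepest PIF3 site, a GAU site at −9 nt in the coding sequence, had 8.22% (3.82 to 16.8%, 73 reads).

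PIF4 and PIF5, a pair of close relatives that promote growth in shade and warmth, each had 3 sites within a short stretch. In PIF4 (AT2G43010, chr2:17886101-17889087, plus strand) the stretch was 12 nt long. The AAC site at +77 nt had 54.5% (34.7 to 73.1%, 22 reads), the AAC site at +66 nt had 32.1% (17.9 to 50.7%, 28 reads), and the UAC site between them had 15.4% (6.15 to 33.5%, 26 reads), the lowest level that could be listed there. In PIF5 (AT3G59060, named PIL6 in the reference, chr3:21827905-21830837, minus strand) the stretch was 20 nt long, from +128 to +147 nt. Its UAC site had 28.1% (15.6 to 45.4%, 32 reads), and its AAC sites had 26.3% (15 to 42.0%, 38 reads) and 16.2% (7.65 to 31.1%, 37 reads). The intervals of all 3 overlapped. Those of the highest PIF4 and PIF5 sites overlapped as well, so that the 2 genes were not separated at this depth.

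PIF7, which acts in shade and is not degraded in light in the way of the other PIFs, had a single listed site. In PIF7 (AT5G61270, chr5:24638491-24640765, minus strand) this AAC site at +69 nt had 67.6% (50.8 to 80.9%, 34 reads). HFR1, an atypical helix-loop-helix protein that binds PIFs and keeps them from DNA, also had a single site. In HFR1 (AT1G02340, chr1:465616-467880, minus strand) this UAC site at +105 nt had 23.1% (13.7 to 36.1%, 52 reads).

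PIF1 represses seed germination and chlorophyll synthesis in the dark. In PIF1 (AT2G20180, named PIL5 in the reference, chr2:8704024-8707009, minus strand) all 4 sites were low. The GAC sites had 18.9% at +70 nt (9.48 to 34.2%, 37 reads) and 13.3% at +62 nt (5.31 to 29.7%, 30 reads). The UAC sites had 8.20% at +146 nt (4.51 to 14.4%, 122 reads) and 11.5% at +160 nt (5.67 to 21.8%, 61 reads). The 4 intervals overlapped.

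Motif composition was compared with the whole table. RAC motifs held 28 of the 61 sites (45.9%, Wilson interval 34.0 to 58.3%), against 39.3% of all sites. The 4 motifs that differ from RAC by 1 base held another 28 (45.9%), against 49.4% of all sites. AAC accounted for 23 sites, and 11 of these exceeded 50%, against 41.8% of all AAC sites. The median of the 23 AAC sites was 45.5%, against 40.5% over the table. The 5 GAC sites were lower, with a median of 18.9% against 40.0%, and 1 of them exceeded 50%, against 41.2% of all GAC sites. GAU, with 11 sites, had a median of 11.7% against 17.1%, and UAC, with 10 sites, had 17.2% against 21.8%. Of the 13 sites above 50%, 12 were in RAC. Over the whole table, too, levels above 50% were more frequent in AAC (41.8%) and GAC (41.2%) sites than in the 1-base variants. Those shares were 19.6% in UAC, 15.5% in GAU, 12.3% in AAU and 11.9% in CAC.

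To set genes side by side with motif taken into account, the mean level of each 3-letter motif over the table was subtracted from each site and averaged per gene. COP1 was 9.10 points above its motifs (SD 23.2 over 14 sites), at the 78.6th percentile of the 12376 genes with at least 3 sites. PIF3 was at −0.04 points and SPA1 at −0.82 points, near the median of all genes, 0.12 points. PIF4 was at −5.77 points, HY5 at −7.81 points and PIF5 at −16.2 points. PIF1 at −24.0 points (SD 5.30 over 4 sites) and HYH at −23.9 points (SD 10.8 over 5 sites) lay at the 3.89th and 4th percentiles. The single sites of PIF7 and HFR1 were at 22.9 and −6.81 points. In 4 genes, PIF1, PIF5, HYH and HFR1, every listed site was below the mean of its motif, against 22.9% of all genes. Those 4 were among the 6 genes of the set with at most 5 sites, and of all genes with at most 5 sites 51.0% had no site above the mean of its motif. Over the 61 sites 21 (34.4%) were above it, against 40.3% of all sites. Low levels are listed only where depth is high. HYH was among the deepest genes of the set, whereas most PIF sites had fewer than 50 reads. With the genes and the motif means restricted to levels of at least 20%, a limit that every depth in the table allows, COP1 was at 2.35 points. SPA1 was then at −5.85 points, PIF3 at −9.77, PIF4 at −14.6, HY5 at −15.4 and PIF5 at −25.0. The single sites of PIF7 and HFR1 were at 9.70 and −23.4 points. HYH was at −29.0 points with 1 of its 5 sites left, and PIF1 had no site left. The median over all genes was not computed with this limit.

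**Figure D4:**
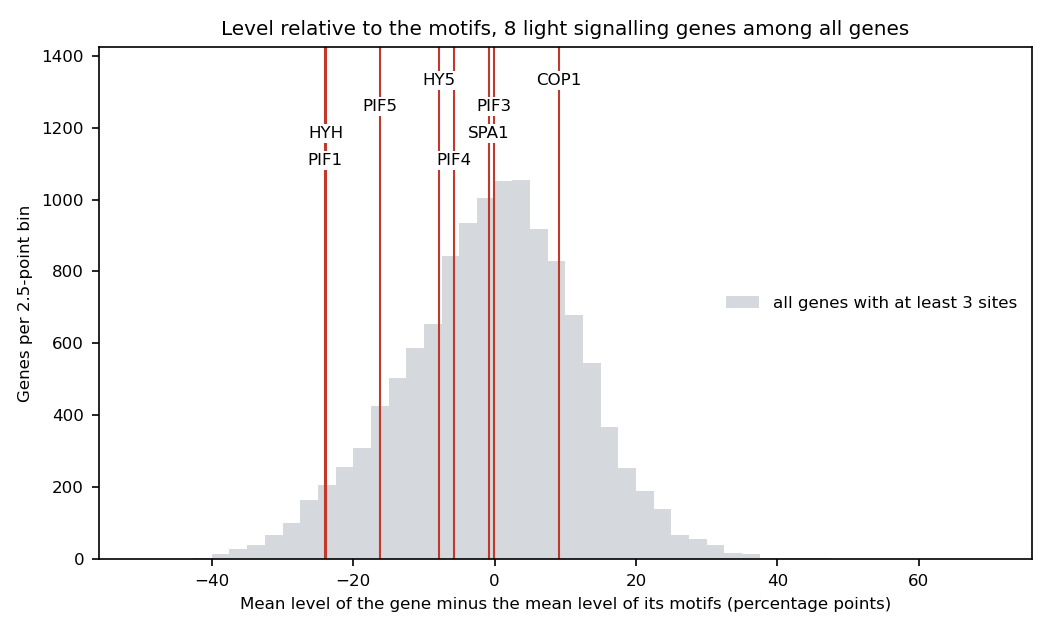
Number of genes by the mean level of their sites minus the mean level of their motifs, in percentage points, for all genes with at least 3 listed sites (grey), and the 8 light signalling genes with at least 3 sites (red lines). COP1 lies to the right at 9.10 points, and PIF1 and HYH lie together in the left tail at −24.0 and −23.9 points.

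The candidate adenosines that were not listed were also counted. In the 3′ UTRs of the 10 genes, 26 of 92 RAC adenosines (28.3%) were listed, against 36.8% over all genes with placed sites. With the second transcript rule the values were 26 of 79 (32.9%), against 37.0%. Between the first and the last listed site of a 3′ UTR nearly all RAC adenosines were listed, namely 25 of 27 in the 8 genes with at least 2 such sites (92.6%), against 85.4% over all genes counted in the same way. The ends of such a stretch are listed sites by construction. PIF7 and HFR1, with 1 listed site each, have no such stretch, and 12 of 13 RAC adenosines were unlisted in PIF7 and all 10 in HFR1. In PIF4 the only RAC adenosines of the stretch were its 2 listed ends, and 9 of 11 in the 3′ UTR were unlisted. The table holds no depth for unlisted adenosines, so they cannot be called unmethylated.

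Other genes of the pathway were examined in the same way, from a list of 34 that act with COP1, the PIFs or HY5. UNE10 (AT4G00050) had 5 sites and a highest level of 20.3%. It had been listed as PIF8 and was left out because the reference names it otherwise. The 4 loci without a symbol there were kept under their locus names, and each had a highest level above 50%. Of the remaining 33 genes, 24 had listed sites, 203 in all, and 20 of these 24 had a highest level above 50%. With sites of at least 50 reads only, 16 genes exceeded 50%. SPA4, BBX20, PAR2 and RUP2 had no site of that depth, so these 16 are not a share of the 24. The share over all genes was not computed with this depth limit. The background share at all depths was 67.0% of genes with sites, and 54.6% of nuclear protein-coding genes had a listed site. The highest levels at a depth of at least 50 reads were those of FHY3, a transposase-derived transcription factor of phytochrome A signalling, with 100% (93.4 to 100%, 54 reads), and DDB1A, an adaptor of CUL4 ligases that also works with COP1, with 98.4% (94.4 to 99.6%, 126 reads). CUL4, the cullin of the same ligases, had 96.8% (89.0 to 99.1%, 62 reads). AT3G13670 had 92.8% (86.9 to 96.2%, 125 reads) and AT3G03940 had 91.8% (82.2 to 96.4%, 61 reads).

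The relatives of SPA1 also exceeded 50%, with 84.5% in SPA2 (73.1 to 91.6%, 58 reads), 57.0% in SPA3 (46.4 to 66.9%, 86 reads) and 62.1% in SPA4 (44.0 to 77.3%, 29 reads). The 9 genes without a listed site were the helix-loop-helix genes PIL1, PIF6, PAR1, HEC1 and HEC2, together with FHL, LAF1, ATHB2 and RUP1. Lack of depth and lack of methylation cannot be told apart in a gene without a listed site.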

How the data were processed

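CAM-seq was run on polyadenylated RNA of 3 seedling samples. Per the labels and methods, the authors trimmed reads with Cutadapt and mapped them to TAIR10 with hisat2-3n (versions not given in the sources used here). They removed reads with many mismatches, with over 3 unconverted adenosines or with more than 1 in 3 of their adenosines unconverted. The limits on unconverted adenosines can lower levels where methylated adenosines are dense or are a large share of the adenosines. The authors deposited raw counts per site (depth and unconverted reads) and a binomial p-value. The deposited p-values equal the tail probability at a background rate of 1%, and the table holds sites with p under 0.001 and at least 20 reads. The study gives a p-value under 0.001 in its results and under 0.0001 with a depth above 20 in its methods, and 57 of the 61 sites have a deposited p-value under 0.0001. Columns carry no sample name, so counts were read as a pool, depth per sample is unknown, and p-values were not used in any test. Of the 120269 sites, 115480 could be placed on a coding transcript. Levels, Wilson 95% intervals, percentiles and transcript positions (RefSeq TAIR10.1, longest coding sequence, then longest transcript) were computed with Python 3.11.15, pandas 2.3.3 and scipy 1.17.1, and placement and intervals were tested on simulated data. All 61 contexts were identical to the reference and none was shared with another listed site. All 10 members are named; for each, the highest site, the deepest site and sites of at least 50% are given. No contrast exists, so no test was made. The members and lists were chosen with earlier results of these data known. Alternatives changed depth, level, p-value, motif and transcript settings.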

Additional observations from a re-analysis of the deposited data

How the results depend on the processing

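No paired analysis was possible because the 3 samples form 1 group and their counts are pooled, and leaving out a sample was not possible for the same reason. Of 59 alternative values, 46 stayed within the counting interval, the spread over sites or 1.5 times the count. For levels relative to motifs these limits are wide, from −20.7 to 19.1 points in SPA1 and 7.88 to 37.9 points in PIF7. SPA1 at −13.4 points in the stop codon window and PIF7 at 9.70 points at levels of at least 20% stayed within them. For such values, staying within the limits does not show that they are stable. A depth of at least 100 reads left 31 of the 61 sites and moved their median level to 14.7%. It left 2 genes with a level above 50%, COP1 and HY5, and a depth of at least 50 reads left 3. The share over all genes was not computed at these depths. Requiring a level of at least 20% left 35 sites, with a median of 40%, a RAC share of 60% and a 3′ UTR share of 100%. The share in the stop codon window was 34.4% with a window ending at +100 nt and 75.4% with the transcript that puts most sites in the window. This transcript rule was chosen after seeing the data. With 5-letter motif means SPA1 turned from −0.82 to 1.15 points relative to its motifs. PIF1 moved to −17.8 points at a depth of at least 100 reads, which left 1 site, and HFR1 to −23.4 points at levels of at least 20%. The single HFR1 site, at 23.1%, passed that limit, so only the mean of its motif changed. No cause beyond these settings was tested. Depth limits the PIF genes most, since at 22 reads the lowest listable level was 18.2%.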

Other observations

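Of the 5 pairs of listed sites that lay within 3 nt of each other in these genes, 3 had overlapping intervals and 2 did not. In COP1 the AAC site at +163 nt had 94.8% (89.1 to 97.6%) and the CAC site 2 nt after it 26.5% (19.3 to 35.4%). In SPA1 an AAU site had 34.8% (27.3 to 43.0%) and the GAU site 3 nt after it 5% (2.44 to 9.96%). The pairs with overlapping intervals were UAC and CAC in HYH, at 13.1% and 8.42%, GAU and UAU in SPA1, at 21.3% and 20.9%, and GAG and GAU in SPA1, at 35.4% and 31.6%. These pairs were chosen after their values were seen.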
